A study of Mus musculus with 8 samples.

Results

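De novo lipogenesis genes were compared between primary hepatocytes of chow-fed and high fat diet (HFD) fed mice. They were chosen by name, with earlier results of these data known. The names were the enzymes Acly, Acaca, Fasn, Me1, Scd1, Elovl6 and Acss2, the lipogenic protein gene Thrsp, and the regulators Mlxipl and Srebf1. Of these 10 names, 9 were found as symbols in the annotation of the array's probes, on 13 of 45281 probes. The named probes of the arrays covered 20289 genes. Acaca was reached only through an older clone name, on 1 probe, and is described but not counted among the 9. All 8 arrays held total RNA of liver hepatocytes from male C57Bl/6 mice without a genetic change or drug named in the labels, 4 from mice on a normal chow diet (arrays 1, 2, 3 and 5 of the labels) and 4 from mice on HFD (arrays 8, 10, 11 and 12). Age, diet length and fat source were not given in the sources used here, nor was whether an array held 1 mouse or a pool; if arrays were not separate mice, the p-values measure only the spread between these RNA samples. Plating lasted 4 h, in M199 with EGF (1.5 nM), dexamethasone (400 nM), insulin (100 nM) and 10% fetal bovine serum. Insulin was then lowered to 10 nM in fresh medium, and RNA was taken after 24 h. The values are therefore those of cells cultured with insulin, not of fresh liver.

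De novo lipogenesis builds fatty acids in the cytosol from acetyl units, and liver is a main site of it. ATP citrate lyase (Acly) and acetyl-CoA synthetase (Acss2) make cytosolic acetyl-CoA, acetyl-CoA carboxylase (Acaca) turns it into malonyl-CoA, and fatty acid synthase (Fasn) joins these units into palmitate with NADPH that malic enzyme (Me1) helps to supply. Elovl6 lengthens palmitate to stearate and Scd1 puts in a double bond, which yields oleate. The genes are driven by SREBP1 (Srebf1), which is released from the endoplasmic reticulum and responds to insulin, and by ChREBP (Mlxipl), which responds to glucose and binds DNA with its partner Mlx. The question of this comparison is how these genes differed in cultured hepatocytes after HFD.

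The 250 bases before the transcription starts that RefSeq lists in GRCm38.p6 were read for genes that differed in opposite directions: Mlxipl, which was lower in HFD arrays, and Me1 and Acss2, which were higher. They show where letters that SREBP, ChREBP and NF-Y are known to prefer lie in front of these genes. Each runs 5′ to 3′ on the strand of the gene, and capitals mark a match on either strand to CACGTG (the core of an E-box), TCACNCCAC (a form of the sterol regulatory element) or CCAAT (the NF-Y box).
Mlxipl upstream start, chr5:135089640-135089889, plus strand: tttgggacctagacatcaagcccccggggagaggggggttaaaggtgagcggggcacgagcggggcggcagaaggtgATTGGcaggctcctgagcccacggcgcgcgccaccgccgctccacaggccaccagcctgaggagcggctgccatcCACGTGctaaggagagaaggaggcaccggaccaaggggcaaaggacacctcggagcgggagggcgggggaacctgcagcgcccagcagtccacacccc
Mlxipl downstream start, chr5:135106641-135106890, plus strand: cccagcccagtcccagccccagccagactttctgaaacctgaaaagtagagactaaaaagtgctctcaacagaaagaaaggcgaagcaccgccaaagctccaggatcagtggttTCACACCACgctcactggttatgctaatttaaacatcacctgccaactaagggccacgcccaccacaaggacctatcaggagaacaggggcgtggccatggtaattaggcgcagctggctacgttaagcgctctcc
Me1 upstream start, chr9:86695915-86696164, minus strand: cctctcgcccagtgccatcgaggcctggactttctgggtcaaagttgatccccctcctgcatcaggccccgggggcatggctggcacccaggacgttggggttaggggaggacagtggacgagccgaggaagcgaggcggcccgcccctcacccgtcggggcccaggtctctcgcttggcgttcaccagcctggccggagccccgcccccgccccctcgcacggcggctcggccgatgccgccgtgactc
Acss2, chr2:155517793-155518042, plus strand: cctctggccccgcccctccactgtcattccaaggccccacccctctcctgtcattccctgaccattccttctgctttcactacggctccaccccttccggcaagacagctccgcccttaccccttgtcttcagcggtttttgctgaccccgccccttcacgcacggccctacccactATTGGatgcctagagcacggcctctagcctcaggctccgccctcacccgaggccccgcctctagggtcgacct

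In the upstream Mlxipl window the E-box core began at base -98 and a CCAAT at base -173, counted from the start. In the downstream Mlxipl window the sterol element form began at base -136. In mouse an upstream start of Mlxipl is known to give the shorter ChREBP-beta, whose transcription ChREBP itself can raise. The Acss2 window held a CCAAT beginning at base -73, and the Me1 window printed held none of these letters. A second Me1 window, at chr9:86687278-86687527 on the minus strand, held a CCAAT beginning at base -208. Windows were listed for 9 of the 10 names, all but Scd1, and were 13 in all. CACGTG was in 1 of these 13, against 6.02% of the 32817 windows of the same length that were searched. The windows searched did not cover every chromosome. TCACNCCAC was in 1 of 13, against 1.05%, and CCAAT in 7 of 13, against 33.8%. The motifs do not overlap in the windows printed. A match is a description of letters, and the arrays did not measure binding or tell the starts of a gene apart.

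Levels are on the log2 scale of the deposited table, and each mean ± SD is over n = 4 arrays of a diet. A difference is HFD minus chow on that scale with its standard error (SE), the fold is 2 to the power of its size, and the adjusted p comes from limma over all 20289 genes with a threshold of 0.05. The median of all probe values was 7.51 and the upper quartile of probe means 7.99, so that levels under about 8 were near background, where differences are understated. One array, chow 3, was unlike the rest. Its correlations over all probes were 0.946 to 0.952, against 0.989 to 0.997 among the other 7 arrays. Values without chow 3 are therefore given beside the results. Hepatocyte markers were mostly bright, with the transthyretin gene Ttr at 14.25 ± 0.27 in chow and 13.99 ± 0.10 in HFD and the lineage factor gene Hnf4a at 11.22 ± 0.12 and 11.17 ± 0.11, but the probe for the albumin gene Alb read only 8.37 ± 0.29 and 8.17 ± 0.28. Another marker on that list, Tat, read 7.31 to 7.48 on all arrays, near background.

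Of the 9 genes, 4 differed between the diets. Me1, Acss2 and Scd1 rose and Mlxipl fell in HFD hepatocytes, while Acly, Fasn, Elovl6, Thrsp and Srebf1 did not pass. Of all genes 4.04% passed, 1.47% higher and 2.57% lower. The values of the diets did not overlap in 5 of the 9 genes, against 10.7% of all genes, and without chow 3 in 7 of the 9, against 18.0%. Above the upper quartile of probe means were 6 of the 9, among them the 4 that passed. Of all 7153 genes above it, 271 passed higher and 416 lower. The diets did not overlap in 1443 of the 7153, against 5 of the 6. Without chow 3 they did not overlap in 2317, against 6 of the 6. The median difference of the 9 was 0.19 and that of all genes -0.0046. Without chow 3, 4 of the 9 rose (Elovl6 in addition) and 1 fell, with 9.17% of all genes passing, 4.84% higher and 4.34% lower. Of the 7153 brighter genes 852 then passed higher and 693 lower. Since the 9 genes were chosen with earlier results of these data known, these shares are a description and not a test.

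**Figure D1:**
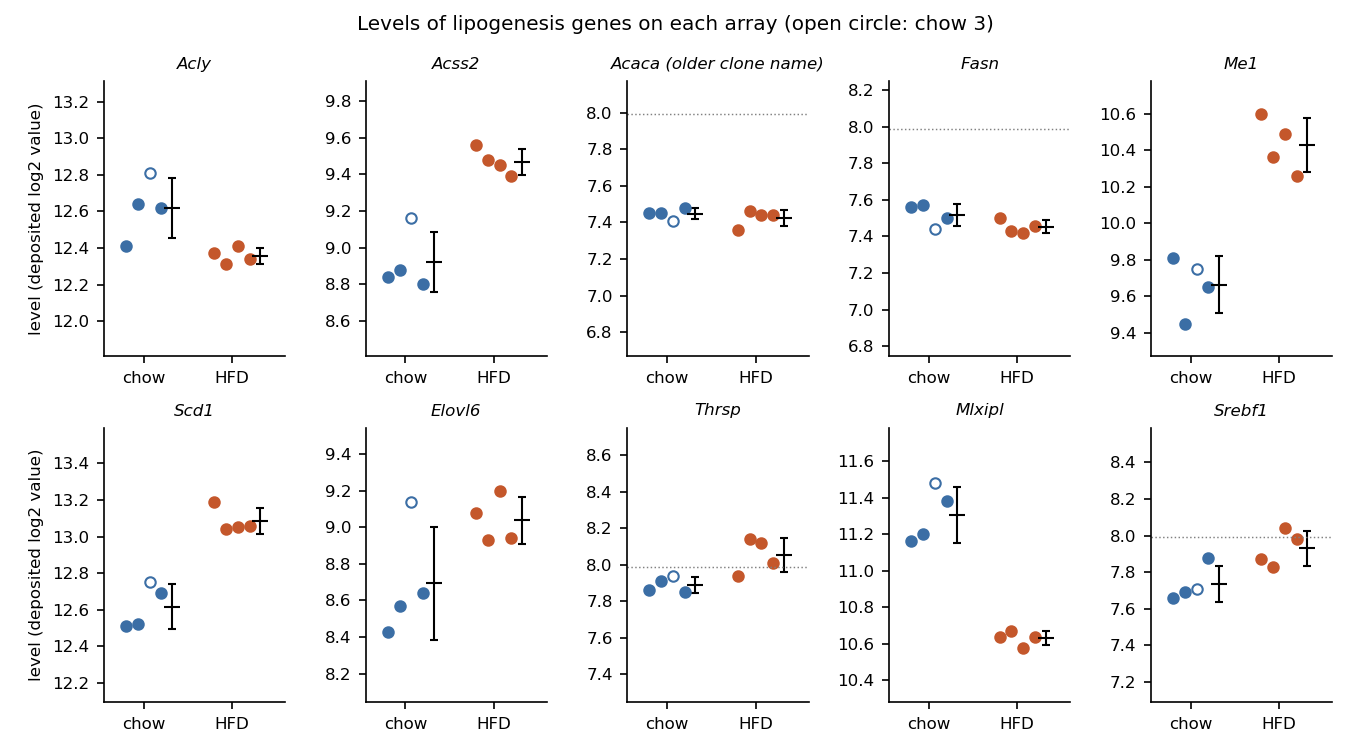
Deposited log2 level (y axis) of each gene on each array, by diet (x axis), with every panel spanning the same range; blue points are chow and orange points HFD arrays, the open circle is chow 3, and bars are mean ± SD of 4 arrays. The dotted line is the upper quartile of probe means, 7.99. Me1, Acss2 and Scd1 lie higher and Mlxipl and Acly lower on every HFD array, and Acaca and Fasn lie near background throughout.

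Some markers of other liver cells moved in the same arrays. Of all genes 4.04% passed, 2.57% lower, or 9.17% and 4.34% without chow 3. Of 21 genes that mark macrophages or Kupffer cells, 7 fell and 0 rose (12 and 0 without chow 3). The mean level of that list ran from 8.58 to 8.72 on chow arrays and from 7.90 to 8.14 on HFD arrays. Fcer1g, an Fc receptor subunit gene, fell by 1.84 on the log2 scale, Laptm5 by 1.46 and Adgre1, a macrophage surface receptor gene, by 1.11. Without chow 3 these differences were -1.72, -1.48 and -1.03. Of the 21 differences 19 were negative and 2 positive. Vsig4 went from 9.05 ± 0.41 in chow to 8.69 ± 0.39 in HFD and did not pass (adjusted p = 0.651 by limma, or 0.785 without chow 3). Clec4f, near background, was higher in HFD by 0.12 (adjusted p = 0.651), or by 0.16 without chow 3 (adjusted p = 0.395). Cd5l, Timd4 and Ptprc were between 7.35 and 7.61 on every array, near background. Among 15 markers of sinusoidal endothelium, 4 were lower and 0 higher in HFD arrays (9 and 1 without chow 3). List means were 8.10 to 8.23 on chow and 7.83 to 7.90 on HFD arrays. Of the 15 differences 12 were negative and 3 positive. Clec4g was the 1 higher without chow 3 (0.33, adjusted p = 0.00769 by limma), and with all 8 arrays it differed by 0.22 (adjusted p = 0.470). Stab1 went from 8.62 ± 0.18 to 8.84 ± 0.28 (adjusted p = 0.634, or 0.422 without chow 3). Sparc and Bgn were the 2 that fell of 15 markers of fibroblasts and stellate cells, with list means of 7.74 to 7.88 and 7.71 to 7.74, and 2 fell without chow 3 as well. On average 13 of these 15 lay below the upper quartile of probe means. Of 7 adipocyte markers 0 passed by limma, and 1 had an unadjusted p under 0.05, against 2852 of all 20289 genes. All 7 lay on average below the upper quartile of probe means, near background, where differences are understated. Without chow 3, 1 of them fell, Cidec (-0.27, adjusted p = 0.0471). In the hepatocyte list 1 of 10 rose, Cps1, a urea cycle enzyme gene (0.51, or 0.55 without chow 3), and 0 fell. Without chow 3, 1 rose and 1 fell in that list, the latter being Serpina1c, a secreted protease inhibitor gene (-0.28, adjusted p = 0.0343; -0.27 and 0.0610 with all 8 arrays). The part of other cell types in the differences below was not tested. In RNA of whole cultures, fewer cells of a type and less RNA per cell cannot be told apart.

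Of the acetyl-CoA sources, Acss2 rose and Acly did not pass. Acss2, which makes acetyl-CoA from acetate, read 8.84, 8.88, 9.16 and 8.80 on chow arrays 1, 2, 3 and 5 and 9.56, 9.48, 9.45 and 9.39 on HFD arrays 8, 10, 11 and 12. All HFD arrays were above all chow arrays, and chow 3 was the highest of the chow arrays. The mean went from 8.92 ± 0.17 to 9.47 ± 0.07, a rise of 0.55 (SE 0.081, 1.46-fold, adjusted p = 0.00935 by limma). Without chow 3 the rise was 0.63 (adjusted p = 0.000125), and averaged with its second probe, which was near background, 0.29.

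Acly, which makes acetyl-CoA from citrate, read 12.41, 12.64, 12.81 and 12.62 on the chow arrays. On the HFD arrays it read 12.37, 12.31, 12.41 and 12.34. The groups just missed each other, with chow 1 and HFD 11 less than 0.01 apart. The level was 12.62 ± 0.16 in chow and 12.36 ± 0.04 in HFD, a difference of -0.26 (SE 0.077, adjusted p = 0.131 by limma, exact 2-sided permutation p = 0.0286). Without chow 1 Acly passed (-0.33, adjusted p = 0.0286), and without chow 3 it did not (-0.20, adjusted p = 0.0765). The ratio of Acss2 to Acly within an array does not depend on the array's overall brightness. On the log2 scale it was -3.70 ± 0.11 in chow and -2.89 ± 0.08 in HFD, higher in 4 of 4 HFD arrays than in any chow array. The difference of 0.81 had an exact 2-sided permutation p of 0.0286, the smallest that 4 against 4 arrays can give, and an adjusted p of 0.0286 over the 3 ratios tested. Since each gene alone separated the diets, in opposite directions, the ratio had to separate them, and its p adds nothing to the values of the genes. Without chow 3 the difference of the ratios was 0.83, and no p is given for 3 against 4 arrays. The level of such a ratio has no meaning of its own, since the probes of different genes are not on a common scale.

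The probes for the central enzymes did not measure them above background. Fasn read 7.56, 7.57, 7.44 and 7.50 in chow and 7.50, 7.43, 7.42 and 7.46 in HFD on its only named probe. These values overlap and lie at the median of all probes. The difference was -0.06 (95% confidence interval -0.15 to 0.02, adjusted p = 0.527), or -0.09 without chow 3 (adjusted p = 0.184), and a change in Fasn RNA could not be detected with this probe. The Acaca probe, annotated under a clone name, read 7.41 to 7.48 in chow and 7.36 to 7.46 in HFD (difference -0.02, adjusted p = 0.870, or -0.03 and 0.721 without chow 3), so it was not informative either. Acacb, the carboxylase gene of the mitochondrial surface, was near background as well, at 7.74 ± 0.16 in chow and 7.88 ± 0.05 in HFD (adjusted p = 0.487), and passed only without chow 3 (0.22, adjusted p = 0.0271) or with array weights (0.21, adjusted p = 0.0445).

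Me1 rose by the largest amount of the 3 genes that rose. The malic enzyme gene read 9.81, 9.45, 9.75 and 9.65 on chow arrays and 10.60, 10.36, 10.49 and 10.26 on HFD arrays. Every HFD array was above every chow array, the nearest being chow 1 and HFD 12. The mean went from 9.66 ± 0.16 to 10.43 ± 0.15, a rise of 0.76 (SE 0.097, 95% confidence interval 0.54 to 0.99, 1.70-fold, adjusted p = 0.00500). Without chow 3 the rise was 0.79 (adjusted p = 0.00201).

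Scd1, the desaturase gene, was among the bright genes and rose as well. It read 12.51, 12.52, 12.75 and 12.69 in chow and 13.19, 13.04, 13.05 and 13.06 in HFD. The lowest HFD array lay above the highest chow array, chow 3. The mean went from 12.62 ± 0.12 to 13.08 ± 0.07, by 0.47 (SE 0.065, 1.38-fold, adjusted p = 0.00766), and without chow 3 by 0.51 (adjusted p = 0.00106). The genes of the Scd family resemble each other, and their probes can share signal. The probes of Scd2, Scd3 and Scd4 read 7.41 to 7.66 on all arrays, near background. The log2 ratio of Scd1 to Fasn within an array was 5.10 ± 0.18 in chow and 5.63 ± 0.04 in HFD, higher by 0.53 (exact 2-sided permutation p = 0.0286, adjusted p = 0.0286 over 3 ratios). Since the Fasn probe was at background, this ratio reflects the Scd1 signal. Without chow 3 the difference of the ratios was 0.60.

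Elovl6, the elongase gene, depended on chow 3. It read 8.43, 8.57, 9.14 and 8.64 in chow and 9.08, 8.93, 9.20 and 8.94 in HFD. The HFD arrays were above 3 of the chow arrays and overlapped with chow 3. The difference was 0.34 (SE 0.147, adjusted p = 0.349 by limma, exact 2-sided permutation p = 0.114). Without chow 3 it was 0.49 (adjusted p = 0.00532), and with array weights, which count chow 3 less (weight 0.192, against 0.821 or more for the others), 0.46 (adjusted p = 0.0166).

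Thrsp, a small protein gene that follows lipogenic stimuli and is also called Spot14, read 7.86, 7.91, 7.94 and 7.85 in chow and 7.94, 8.14, 8.12 and 8.01 in HFD, near background. Chow 3 and HFD 8 met at 7.94. The difference of 0.16 (SE 0.050) did not pass (adjusted p = 0.167, or 0.0826 without chow 3). Its relative Mid1ip1, whose product helps acetyl-CoA carboxylase to form active filaments, was bright enough to be measured. It read 9.68, 9.85, 9.97 and 10.03 in chow and 10.36, 10.37, 10.47 and 10.29 in HFD, with no overlap. The rise was 0.49 (SE 0.078, 1.40-fold, adjusted p = 0.0131), or 0.52 without chow 3 (adjusted p = 0.00476).

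**Figure D2:**
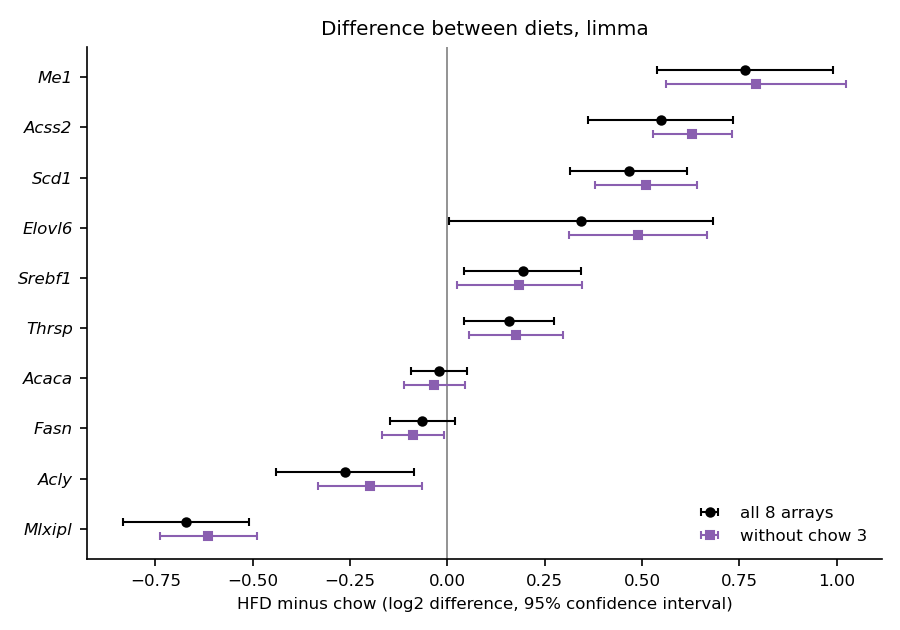
Difference between the diets (x axis, HFD minus chow, log2) for each gene (y axis), with 95% confidence intervals from limma; black circles are all 8 arrays and purple squares the 7 arrays without chow 3. The intervals of Me1, Acss2, Scd1 and Mlxipl lie farthest from 0 in the fit of all 8 arrays, those of Acly, Thrsp and Srebf1 also exclude 0 in both fits without an adjustment for the number of genes, and the interval of Elovl6 moves from 0.0030 to 0.68 to a range well above 0.

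Among the regulators, Mlxipl fell. Its probe under the current symbol read 11.16, 11.20, 11.48 and 11.38 in chow and 10.64, 10.67, 10.58 and 10.64 in HFD. All HFD arrays were below all chow arrays and varied little among themselves. The mean went from 11.30 ± 0.15 to 10.63 ± 0.04, a difference of -0.67 (SE 0.070, 95% confidence interval -0.83 to -0.51, 1.59-fold lower, adjusted p = 0.00192). Without chow 3 it was -0.61 (adjusted p = 0.000357). A second probe, annotated under the older name Wbscr14 and matched to Mlxipl by its transcript, had no part in choosing the gene. It read 9.20, 9.17, 9.33 and 9.19 in chow and 8.72, 8.69, 8.62 and 8.57 in HFD, again with no overlap. In the fit over all 45281 probes, of which 2.09% passed (0.74% higher and 1.35% lower), the brighter probe gave -0.67 (adjusted p = 0.00324) and the second -0.57 (SE 0.047, adjusted p = 0.00125). Both probes hybridise the same RNA samples and are not replicates of the diet.

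Srebf1 was dim. It read 7.66, 7.69, 7.71 and 7.88 in chow and 7.87, 7.83, 8.04 and 7.98 in HFD, with chow 5 inside the HFD range. The difference of 0.19 (SE 0.065) did not pass (adjusted p = 0.199, or 0.175 without chow 3), and its second probe stayed at 7.37 to 7.48. The log2 ratio of Srebf1 to Mlxipl within an array was -3.57 ± 0.13 in chow and -2.71 ± 0.13 in HFD, higher on each HFD array than on any chow array. The difference was 0.86 (exact 2-sided permutation p = 0.0286, adjusted p = 0.0286 over 3 ratios), or 0.80 without chow 3. Since Srebf1 was near background and Mlxipl alone differed by -0.67, the ratio mostly restates the difference of Mlxipl. RNA levels of Srebf1 and Mlxipl do not give the amount of processed SREBP1 or of ChREBP in the nucleus, which was not measured.

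**Figure D3:**
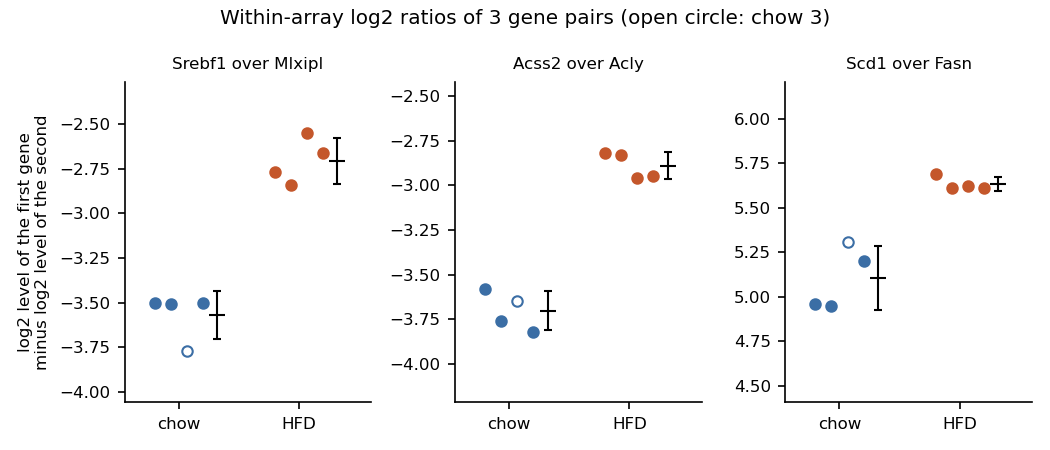
Log2 ratio of 2 genes within each array (y axis) by diet (x axis); points are arrays, the open circle is chow 3, and bars are mean ± SD of 4 arrays. All HFD arrays lie above all chow arrays in the 3 pairs, by 0.86 for Srebf1 over Mlxipl, 0.81 for Acss2 over Acly and 0.53 for Scd1 over Fasn.

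The dimmer probes of the other genes with several probes gave no further information. The second probes of Acss2 (7.41 to 7.60), Elovl6 (7.47 to 7.68) and Thrsp (7.32 to 7.44) stayed near background on all arrays, with differences of 0.04, 0.06 and -0.01. None of the 3 passed in the fit over all probes (adjusted p of 0.747 to 0.948). The results for Acss2, Elovl6 and Thrsp therefore rest on 1 probe each, as do those for Acly, Fasn, Me1 and Scd1, which have no other named probe.

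**Figure D4:**
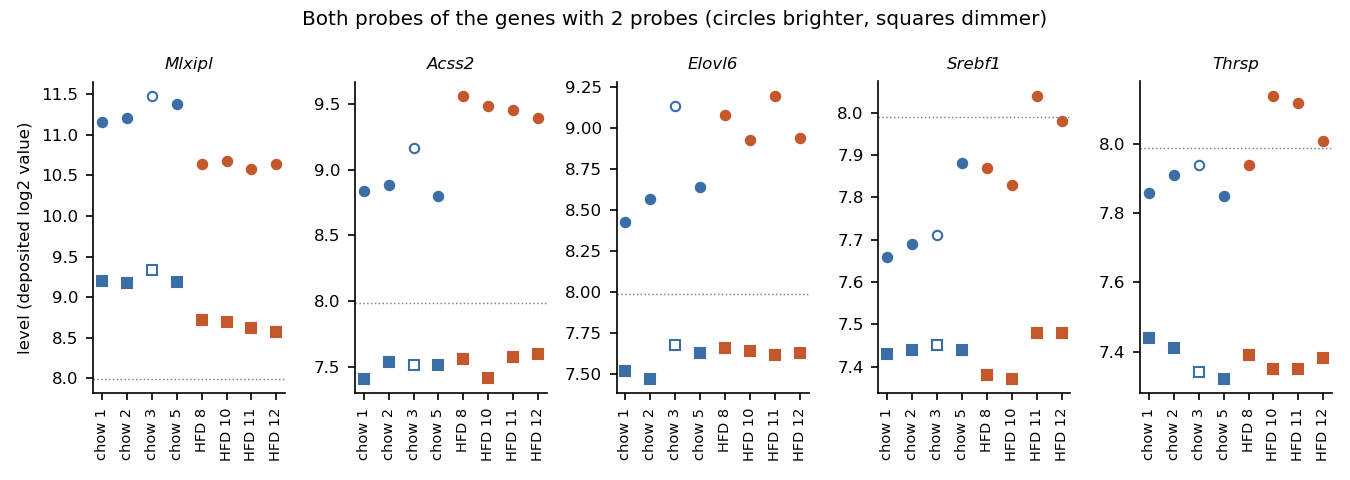
Deposited log2 level (y axis) of both probes on each array (x axis) for the genes with a pair of probes, the brighter as circles and the dimmer as squares; blue is chow, orange HFD, open symbols chow 3, and the dotted line the upper quartile of probe means, 7.99. Both Mlxipl probes are lower on all HFD arrays, and the dimmer probes of the other genes lie below the line.

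Of 19 measured genes in a list of regulators of SREBP1 and ChREBP, 1 rose and 0 fell, a share near the 4.04% of all genes. The gene that rose was Mid1ip1, whose product, as given above, acts on acetyl-CoA carboxylase. An unadjusted p under 0.05 by limma was found for 5 of the 19, against 2852 of all 20289 genes. The list median was 0.06. Without chow 3, 3 rose and 0 fell, where 9.17% of all genes passed. The additional genes were Bhlhe40, a repressor of the circadian system (0.48, adjusted p = 0.0489), and Pparg, a lipid-activated nuclear receptor gene that rises in fatty liver (0.45, adjusted p = 0.0157). With all 8 arrays Bhlhe40 went from 10.77 ± 0.24 to 11.22 ± 0.13 (adjusted p = 0.0963) and Pparg from 8.24 ± 0.30 to 8.55 ± 0.15 (adjusted p = 0.436). These and the following genes of this list were named after their values were seen. Nr1h3, which encodes the liver X receptor that drives Srebf1, went from 10.19 ± 0.07 to 10.39 ± 0.14 (adjusted p = 0.241, or 0.107 without chow 3). It passed when its probes were averaged (0.24, adjusted p = 0.0448). Scap, the escort of SREBP out of the endoplasmic reticulum, went from 9.72 ± 0.12 to 9.44 ± 0.15 (adjusted p = 0.147, or 0.135 without chow 3). Insig2, which retains Scap, was at 11.22 ± 0.21 and 11.32 ± 0.05 (adjusted p = 0.746, or 0.918 without chow 3). A second bright Insig2 probe went from 10.64 to 10.85 (adjusted p = 0.690 over all probes) and rose without chow 3 (0.34, adjusted p = 0.0119).

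Insig1, a retention factor that is itself an SREBP target, gave different results by probe. The probe that represents it, the brightest by a small margin, read 8.55 ± 0.11 in chow and 8.49 ± 0.13 in HFD, a difference of -0.07 (adjusted p = 0.820 over all genes, 0.865 over all probes). A pair of other probes, nearly as bright, gave -0.43 and -0.42 in the fit over all probes (adjusted p = 0.0327 and 0.0381). Without chow 3 these were -0.38 (adjusted p = 0.0141) and -0.41 (adjusted p = 0.0198). The remaining probe was at background. Averaged over its probes Insig1 differed by -0.24 (adjusted p = 0.0545), so the call for this gene depends on which probe stands for it.

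In a list of 20 genes of fatty acid chain modification, 0 passed by limma, which at 4.04% of all genes says little about so short a list. Most of them elongate, desaturate or activate fatty acids, and others, such as the carboxylase gene Acacb, act at other steps. An unadjusted p under 0.05 by limma was found for 3 of the 20, against 2852 of all 20289 genes. The list median was 0.02. Without chow 3, 1 rose, Acacb, where 9.17% of all genes passed. The smallest p-values belonged to Elovl5, an elongase gene of polyunsaturated fatty acids, at 12.22 ± 0.14 in chow and 12.50 ± 0.09 in HFD (0.28, adjusted p = 0.0964), and to Slc27a5, a bile acid and fatty acid activating enzyme gene, at 10.49 ± 0.18 and 10.13 ± 0.15 (-0.36, adjusted p = 0.131). Both passed without chow 5, with adjusted p-values of 0.0372 and 0.0365, and Slc27a5 also with array weights (adjusted p = 0.0479). Without chow 3 neither passed (adjusted p = 0.0842 and 0.101). Fads1, a desaturase gene of polyunsaturated fatty acids, named after its values were seen, stayed between 12.32 and 12.50 on all arrays (adjusted p = 0.506, or 0.528 without chow 3).

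Of 25 measured genes that supply carbon or NADPH or are known ChREBP targets, 1 rose and 0 fell, a share like that of all genes (4.04%). An unadjusted p under 0.05 by limma was found for 9 of the 25, against 2852 of all 20289 genes. The list median was 0.02. The gene that rose was Slc25a10, the mitochondrial dicarboxylate carrier. It read 8.80, 8.89, 8.82 and 8.89 in chow and 9.12, 9.14, 9.13 and 9.15 in HFD, a small but uniform rise of 0.29 (SE 0.031, 1.22-fold, adjusted p = 0.00229), or 0.28 without chow 3 (adjusted p = 0.00185). It lost its call with trend and robust settings (adjusted p = 0.116). Slc25a1, the carrier that brings citrate to Acly, was named after its values were seen and did not pass, at 10.90 ± 0.10 in chow and 10.88 ± 0.02 in HFD (adjusted p = 0.933, or 0.333 without chow 3).

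Without chow 3, 8 genes of this list passed, 5 higher and 3 lower, where 9.17% of all genes passed. They are named here after their values were seen. The higher ones besides Slc25a10 included the isocitrate dehydrogenase gene Idh1 (0.24, adjusted p = 0.0248) and the cytochrome b5 type B gene Cyb5b (0.36, adjusted p = 0.00736). The others that rose were the glucose transporter gene Slc2a2 (0.37, adjusted p = 0.0139) and the hormone gene Fgf21, a ChREBP target whose probe was near background (0.26, adjusted p = 0.0404). The lower ones were Txnip (-0.37, adjusted p = 0.0434) and Pklr (-0.18, adjusted p = 0.0340; 0.02 with all 8 arrays), both also known ChREBP targets, and the pentose phosphate enzyme gene Taldo1 (-0.28, adjusted p = 0.0468). Dimmer probes of Pklr gave -0.02 and 0.01 without chow 3 (adjusted p = 0.951 and 0.968 by limma over all probes), so its call rests on 1 probe. A dimmer Txnip probe gave -0.24 without chow 3 (adjusted p = 0.0545 by limma over all probes). With all 8 arrays the probe that represents Txnip read 8.30, 8.02, 8.80 and 8.43 in chow and 7.99, 7.79, 7.90 and 7.83 in HFD. The groups did not overlap, and the difference of -0.51 did not pass (SE 0.148, adjusted p = 0.128). It did pass with trend and robust settings (adjusted p = 0.0399) and without chow 2 (adjusted p = 0.0433). Among the other genes of this list, Khk, the fructokinase gene, went from 10.59 ± 0.11 to 10.71 ± 0.07 (adjusted p = 0.479) and the transketolase gene Tkt from 12.01 ± 0.25 to 12.40 ± 0.14 (adjusted p = 0.183). Pnpla3 read 7.42 to 7.50 on all arrays, near background.

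**Figure D5:**
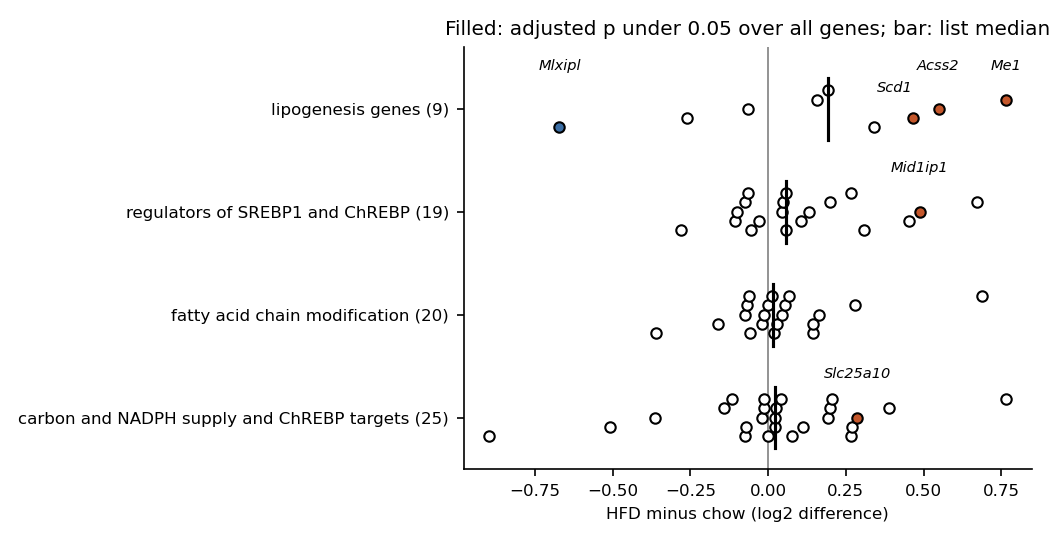
Difference between the diets (x axis, HFD minus chow, log2, all 8 arrays) of each measured gene in the lipogenesis group and in 3 lists of related genes (y axis, number of genes in brackets); filled points passed an adjusted p of 0.05 over all genes, orange higher and blue lower, and vertical bars are list medians. In the related lists 1, 0 and 1 genes passed, and the medians lie between 0.02 and 0.06.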

How the data were processed

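Total RNA was measured on 8 single-colour Illumina bead arrays labelled with Cy3. The authors deposited 1 table of log2 values (45281 probes, 8 columns, 0 columns unused), made with lumi per the submitters' processing notes; which version and steps were used is not stated there. The values themselves gave the unit, and a variance-stabilised scale close to log2 cannot be told from log2. Sorted columns differed from their mean by at most 0.0026, so they were not normalized again. Equal distributions hide any change common to all genes. Precision is limited by the number of arrays.

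Gene names came from the platform annotation, updated through RefSeq genes of GRCm38.p6 (names only). Where a gene had several probes, the brightest on average stood for it. Tests used limma 3.58.1 in R 4.3.3 (lmFit, eBayes, 2-sided, no covariate, Benjamini-Hochberg over 20289 genes). Exact permutation tests covered 70 assignments. The fit was tested on simulated data. The alternatives were cyclic loess, array weights, the mean of a gene's probes, 2 filters on dim probes, trend and robust settings, and each array left out. The genes and lists were chosen with earlier results of these data known. Beyond the 10 names, the rule named, from each of 3 related lists, up to 6 genes that passed (where none did, the 2 of smallest p), up to 3 per marker list, and 3 genes most like each of Srebf1, Mlxipl and Me1; any other gene was chosen with its values in view, among them Ttr, Hnf4a, Alb, Serpina1c, Cidec, Khk, Tkt, Pnpla3 and Acacb. Plots were made with matplotlib 3.10.9.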

Additional observations from a re-analysis of the deposited data

Results flagged for a closer look

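Among the named genes 88 sets of 4 arrays were examined for an array far from the other 3 (Dixon's criterion at 95%), which chance gives in about 1 of 20 sets, and 6 were found. None was in the 9 lipogenesis genes. In 3 the array was chow 3, low for Idh1 (8.67, others 10.72 to 10.88), Pklr (7.59, others 8.31 to 8.44) and the transferrin gene Trf (12.13, others 14.64 to 14.84). The others were a low Cps1 on chow 1 (8.18, others from 8.44), a low Lyve1 on chow 5 (8.21, others 8.65 to 8.73) and a low Insig1 on HFD 8 (8.29, others 8.54 to 8.57).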

How the results depend on the processing

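The calls of Me1, Acss2, Scd1 and Mlxipl kept their direction and passed under every alternative in which they were run; their largest adjusted p-values were 0.0230, 0.0378, 0.0305 and 0.0110. Of 122 values of the 9 genes under alternatives, 119 kept direction and side of the threshold, and 3 newly passed, Elovl6 without chow 3 and with array weights and Acly without chow 1. The number of the 9 that passed was 4 or 5 throughout. Counts for larger sets moved more. Of all genes 820 passed, 1603 with array weights, and 447 to 1861 with 1 array left out (1861 without chow 3; 543, 457, 495 and 447 without HFD 8, 10, 11 and 12, in that order). Of the genes listed as regulators 1 passed, 3 with array weights, 2 with probes averaged and 2 with trend and robust settings. With 1 array left out 1 to 3 of them passed (3 without chow 3, 2 without chow 5). Of the chain modification genes 0 passed, 2 with array weights and 0 to 3 with 1 array left out (1 without chow 3, 3 without chow 5). Of the supply and target genes 1 passed, 5 with array weights, 2 with probes averaged, 2 with trend and robust settings (both lower), and 1 to 8 with 1 array left out (2 without chow 2, 8 without chow 3). The sign turned for Slc25a1 (-0.02; 0.021 with the mean of its probes, and -0.0666 to 0.0070 with 1 array left out) and for Pklr (0.02; -0.13 with array weights, and -0.18 to 0.11 with 1 array left out, -0.18 without chow 3). Each of the markers Cdh5 and Bgn lost its call in 6 of 8 fits that left out 1 array. For the ratios, fits that leave out 1 array are given as values without a p, and no sign turned. The causes were not tested. No paired analysis was possible because the chow and HFD arrays share no replicate numbers. Signal near background limits Fasn, Acaca, Srebf1 and Thrsp.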

Other observations

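The genes whose levels, centred on their own mean, followed a lipogenesis gene most closely over the 8 arrays were searched among 7147 others above the upper quartile of probe means, and the distance is the root mean square of the 8 gaps in log2 units. Closest to Mlxipl were Id3, an inhibitor of helix-loop-helix transcription factors (distance 0.067, HFD minus chow -0.67), Ddah1, which breaks down methylated arginine (0.071, difference -0.67), and Haus8, a mitotic spindle gene (0.074, difference -0.70). Mlxipl itself deviated from its mean by 0.348 on this measure. Closest to Me1 were Ltbp3, a gene of the latent TGF-beta complex (0.117, difference 0.76), the ion exchanger gene Slc24a3 (0.120, difference 0.75) and Krtcap3 (0.128, difference 0.75), with a deviation of 0.405 for Me1. Closest to Srebf1 were Csnk1g2 (0.046), Bloc1s2 (0.047) and Myh9 (0.048), against a deviation of 0.130. These are descriptions over arrays that share the diets.

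The pyruvate dehydrogenase kinase gene Pdk4, whose product keeps pyruvate from becoming acetyl-CoA, was chosen with its values in view. It read 10.33, 10.23, 10.88 and 11.36 on chow arrays and 10.21, 9.41, 9.87 and 9.72 on HFD arrays. The groups did not overlap, with chow 2 and HFD 8 nearest. The difference of -0.90 (SE 0.271) had an adjusted p of 0.146 by limma, or 0.124 without chow 3 (-0.84).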
